A study of Macaca mulatta with 5 samples.

Results

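The cerebellum library of a rhesus macaque RNA-Seq series was compared with the kidney, lung, heart and spleen libraries of the same series, 1 library out of 5 against the other 4. The libraries were taken by their tissue labels. All 5 libraries were poly(A)-positive, strand-specific libraries made from total RNA of male rhesus monkeys (Macaca mulatta) by incorporation of deoxy-UTP, and no treatment, strain or age was given for any of them. The study describes cerebellum, kidney, lung and heart as tissues of the same animal; the animal that gave the spleen is not stated in the sources used here. Each tissue had 1 sample, so no value below has a replicate error, no test between tissues was made, and tissue, library and, for the spleen, animal cannot be told apart.

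The cerebellum is built from a very large number of small granule cells, whose axons, the parallel fibres, excite the Purkinje cells through glutamate. Purkinje cells are inhibitory and are the sole output of the cerebellar cortex. Golgi cells and molecular layer interneurons release GABA or glycine, Bergmann glia and astrocytes clear transmitter, and oligodendrocytes wrap axons in myelin. Kidney, lung, heart and spleen hold no central neurons in number but hold much more connective tissue, smooth muscle and blood-derived cells. In a whole tissue, fewer cells of a type and less RNA per cell cannot be told apart.

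The unit was RPKM, the read count of a transcript divided by its exon length and by the depth of the library, which allows levels of different genes to be compared per length. Properly mapped reads numbered 81517974 in cerebellum and 48306898 to 77785104 in the other tissues, and 3 reads on a transcript of 1000 bp, taken as the smallest level the depth can show, equalled 0.0368 RPKM in cerebellum and 0.0386 to 0.0621 RPKM elsewhere. A gene was represented by its transcript with the highest RPKM sum over the 5 tissues. It is called higher in cerebellum where the ratio of (RPKM + 1) in cerebellum to that in the highest other tissue was 4 or more, and lower where the ratio to the lowest other tissue was 0.25 or less. The pseudocount of 1 RPKM understates the fold of low genes, and a gene that is low in cerebellum cannot be called higher whatever its fold. The lowest cerebellum level of any higher gene was 3.09 RPKM. Coordinates are those of the rheMac2 build, and intervals are 95% Wilson intervals, which cover counting error only.

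Of 28633 genes, 682 were higher in cerebellum (2.38%) and 106 were lower (0.370%). Among the 15688 genes that reached 1 RPKM in at least 1 tissue, these shares were 4.35% and 0.676%. The counting interval of the cerebellum level lay above those of all 4 other tissues for 682 of 682 higher genes, and below them for 106 of 106 lower genes. The genes were chosen by their fold in the same counts, so this separation largely follows from the rule and is no separate check. By the same rule applied to each tissue in turn, 532 genes were higher in kidney (1.86%), 281 in spleen (0.981%), 268 in lung (0.936%) and 163 in heart (0.569%), and 55 were lower in heart (0.192%), 10 in kidney (0.0349%), 8 in spleen (0.0279%) and 0 in lung. In the deposited, unscaled RPKM cerebellum thus held the largest number of genes set apart in either direction among these 5 libraries. The counts of the other 4 tissues were not computed under another scaling. Leaving the kidney library out changed the count of lower genes to 175 and leaving the heart library out changed it to 333; heart was the lowest other tissue for 55 and kidney for 32 of the 106 genes. Across the 15688 genes, Spearman's rho between cerebellum and another tissue was 0.51 to 0.63, and it was 0.62 to 0.79 between pairs of the other 4; this is a description over genes, which are not independent.

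**Figure D1:**
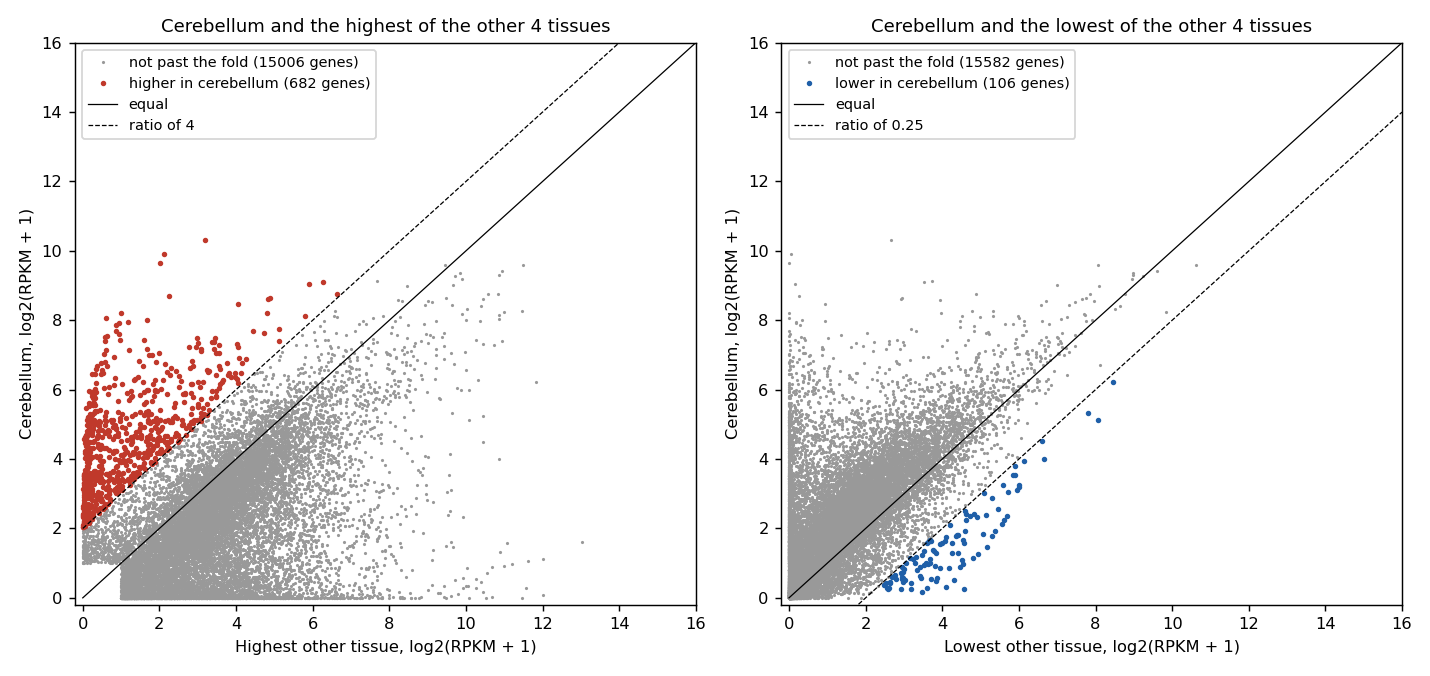
RPKM in cerebellum against the highest (left) and the lowest (right) of the other 4 tissues, on log2(RPKM + 1) axes, for the 15688 genes at 1 RPKM or more in any tissue; each point is 1 gene. The 682 higher genes lie above the dashed line of a ratio of 4, many of them near 0 on the horizontal axis, and the 106 lower genes lie under the dashed line of a ratio of 0.25.

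The higher genes were mostly near silence elsewhere. Of the 682, 382 were under 1 RPKM in all 4 other tissues and 8 had 0 reads in all 4, among them CELF5, an RNA-binding protein of neurons, at 5.23 RPKM. The ratio was 4 to under 8 for 304 genes, 8 to under 16 for 183, 16 to under 32 for 120, 32 to under 64 for 48 and 64 or more for 27. In cerebellum 67 of the 682 reached 100 RPKM, and together the higher genes made up 18.5% of the RPKM sum over all genes there. At the edge of the rule, LARP6 with a ratio of 4.03 was inside and MIXL1 with 3.99 was outside.

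SNAP25 (ENSMMUG00000011064, chr10:43494264-43581468), a protein of the vesicle fusion complex at nerve terminals, had the highest ratio of all genes in the deposited RPKM. Its level was 951 RPKM in cerebellum (interval 947 to 956), while kidney, lung, heart and spleen held 0.815, 0.824, 3.34 and 0.0301 RPKM, and the ratio to heart was 219.5. STMN2 (chr8:82067573-82097129), a microtubule regulator of growing axons, stood at 809.9 RPKM in cerebellum and at 0, 0.400, 3.01 and 0.0662 RPKM in kidney, lung, heart and spleen. For both genes cerebellum was far above every other tissue, and heart was the next. The transcription factor ZIC1 (ENSMMUG00000004742, chr2:140366209-140369962), which marks granule cells and their precursors, followed at 265 RPKM in cerebellum, with 52 reads in heart, or 0.516 RPKM, and 0 reads in kidney, lung and spleen.

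Myelin was also represented. MBP (chr18:70430504-70469949), myelin basic protein, reached 1271 RPKM in cerebellum and 8.13, 5.32, 7.79 and 5.53 RPKM in kidney, lung, heart and spleen. MBP was the gene with the highest cerebellum level among the 20 named genes of highest ratio and the one with the highest background, so its ratio of 139 lay under that of ZIC1, which was lower in RPKM but nearly silent elsewhere.

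The rest of the 20 genes fell into a few roles. Proteins of vesicles and their release were SNCB (beta-synuclein) at 294 RPKM in cerebellum, SYT1 (the calcium sensor of fast release) at 171, SYT4 at 128 and CHGB (a granule protein of secretory cells) at 192, none of them above 1 RPKM in another tissue. CBLN3 at 230.0 RPKM and CBLN1 at 204 RPKM encode cerebellins, which granule cells secrete onto Purkinje cell synapses; the highest other tissue was spleen at 0.832 RPKM for CBLN3 and heart at 0.810 RPKM for CBLN1. GABRD, the delta subunit of GABA-A receptors outside synapses, was at 87.0 RPKM against at most 0.191, and ZIC2, a relative of ZIC1, at 103 against at most 0.283. TMEM59L (241 RPKM), PHYHIP (182), FAIM2 (139.7), TAGLN3 (108), NPTX1 (95.3), a neuronal pentraxin, and TCEAL6 (86.6) were each under 1 RPKM in all 4 other tissues. Counting error was small for all 20, the widest interval being ± 2.27% of the cerebellum level.

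1 of the 20 should be read as a transcript and not as a gene. DDX39B, an RNA helicase used by every cell, entered by a short transcript at chr4:31178880-31180982 with 247 RPKM in cerebellum and 0.142, 0.362, 0.889 and 1.27 RPKM in kidney, lung, heart and spleen. Its longest transcript, which runs from 31164612 to 31181034, was at 45.0, 21.1, 37.6, 15.5 and 45.9 RPKM, and cerebellum was not the highest. The gene order in the RefSeq table of assembly T2T-MMU8v2.0 places another gene, ATP6V1G2, within 2 places of DDX39B; which gene the short transcript belongs to was not tested. With RPKM summed over all transcripts of DDX39B, its log2 ratio to the highest other tissue was 1.995 in place of 6.77, just short of the fold.

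**Figure D2:**
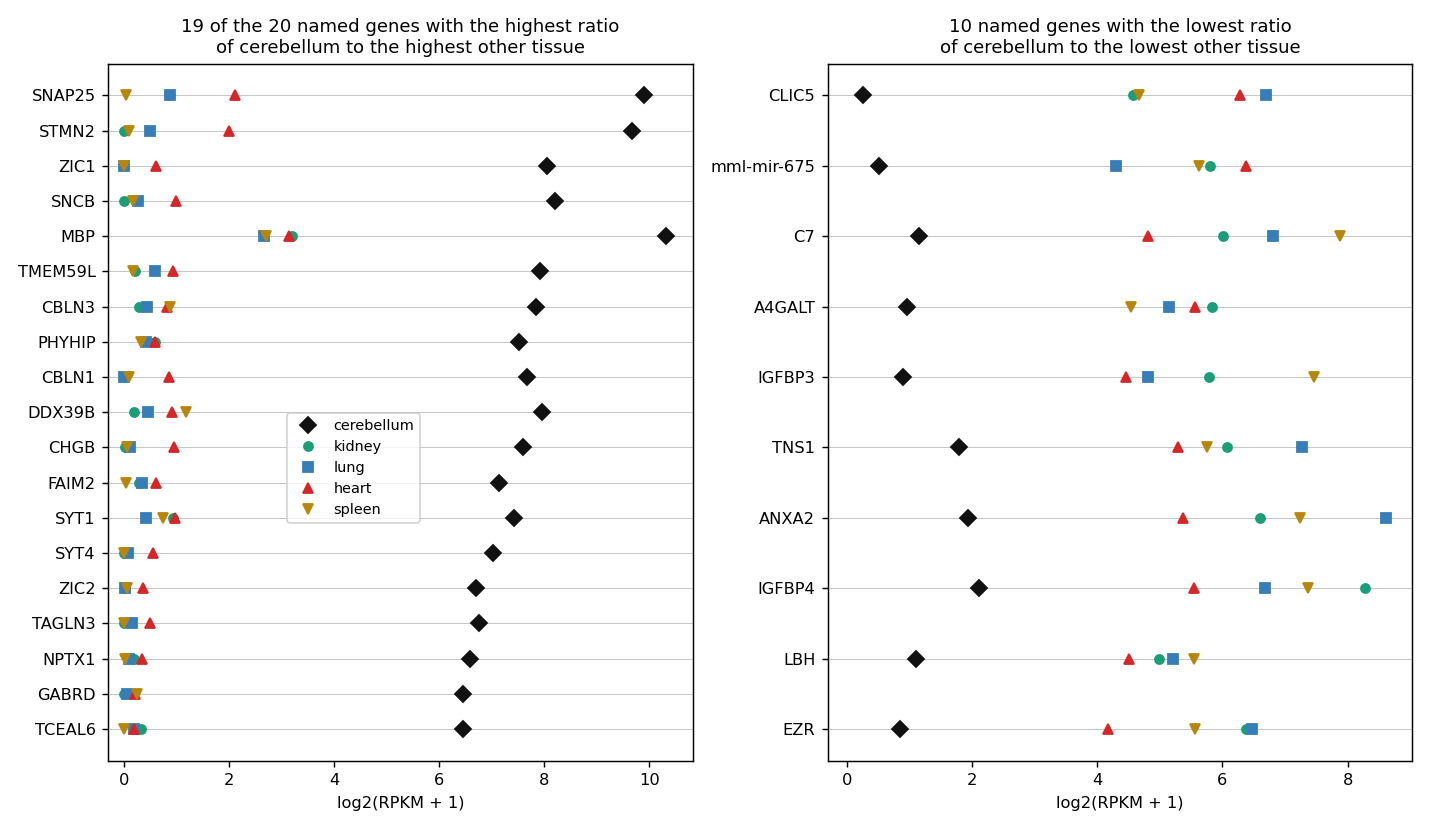
log2(RPKM + 1) in each of the 5 tissues, 1 point per library, for 19 of the 20 genes with a symbol and the highest ratio of cerebellum to the highest other tissue (left) and the 10 with the lowest ratio to the lowest other tissue (right). On the left cerebellum stands alone between 86.6 and 1271 RPKM while the other tissues reach at most 8.13 RPKM; on the right cerebellum is at 3.34 RPKM or less and the other 4 are at 17.1 RPKM or more.

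The cerebellum library was then described by lists of cell type markers. The lists were chosen with earlier results of these data known, so their counts are no independent check of the tissue label. Of 15 measured granule cell genes, 15 were higher in cerebellum, against 2.38% of all genes, and the median log2 ratio to the highest other tissue was 5.36, against -0.13 over all genes. Besides the ZIC genes and the cerebellins these included SLC17A7, which loads glutamate into vesicles, at 132 RPKM and at most 2.94 RPKM in another tissue. RBFOX3, known as the neuronal antigen NeuN, was at 93.5 RPKM against at most 0.406. The neuronal transcription factors NEUROD1 and NEUROD2 were at 60.1 and 55.5 RPKM and PAX6 at 36.4, each under 0.2 RPKM in all other tissues.

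Purkinje cell genes were present but less exclusive. Of 14 measured, 9 were higher in cerebellum and 12 had their highest level there, which held for 15.1% of all genes and for 20.1% of those at 1 RPKM or more in any tissue. ALDOC, the aldolase of zebrin-positive Purkinje cells and of astrocytes, was at 524 RPKM in cerebellum, 58.6 in heart and at most 2.39 in the other 3. PVALB, a calcium buffer of Purkinje cells and interneurons, was at 102 RPKM against 10.7 in kidney. SLC1A6, the glutamate transporter of Purkinje cells, was at 8.98 RPKM against at most 0.0256. Kidney broke the pattern for CALB1, the calbindin of Purkinje cells, which was at 108 RPKM in cerebellum and 488 RPKM in kidney, where the distal tubule uses it. LHX1, a transcription factor of both organs, was at 24.7 RPKM in cerebellum and 11.5 in kidney, and RORA, a nuclear receptor needed by Purkinje cells, at 2.21 in cerebellum and 7.39 in kidney.

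The genes of inhibitory interneurons were fewer. Of 12 measured, 4 were higher. The GABA-synthesizing enzymes GAD1 and GAD2 were at 33.6 and 10.04 RPKM and the vesicular transporter SLC32A1 was at 10.8 RPKM, all at most 0.0788 RPKM elsewhere. PAX2, which is also a kidney transcription factor, was at 1.43 RPKM in cerebellum and 45.1 in kidney, and SLC6A5, the glycine transporter of Golgi cells, was at 0.441 RPKM.

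Of 10 measured genes of Bergmann glia and astrocytes, 4 were higher. NDRG2 was at 428 RPKM in cerebellum and 28.4 to 97.8 RPKM elsewhere, which gave a ratio of 4.35. SLC1A3, the glutamate transporter GLAST, was at 165 RPKM against 9.28 in heart, GFAP, the intermediate filament of astrocytes, at 46.6 against 0.190 in heart and 0 reads in the other 3, and MLC1, an astrocyte membrane protein, at 25.1 against at most 0.136. The water channel AQP4 was not called, since lung at 33.6 RPKM lay close to cerebellum at 38.6. HOPX and ALDH1L1, which are used as glial markers within the brain, were at 6.74 and 1.73 RPKM in cerebellum but at 108 RPKM in lung and 118 RPKM in kidney respectively.

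Of 10 oligodendrocyte genes, 5 were higher, among them MBP, MOBP at 27.2 RPKM, MOG at 12.2 and the transcription factor OLIG2 at 10.6. CNP, a myelin enzyme, was at 38.8 RPKM against 14.0 in spleen and stayed under the fold. MAL, a myelin proteolipid also used in kidney tubules, was at 2.11 RPKM in cerebellum and 18.8 in kidney. None of 5 microglia genes was higher or had its highest level in cerebellum. CSF1R, the receptor on which these cells depend, was at 7.30 RPKM in cerebellum and 120.3 in spleen, and P2RY12 at 3.19 and 9.35 RPKM.

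**Figure D3:**
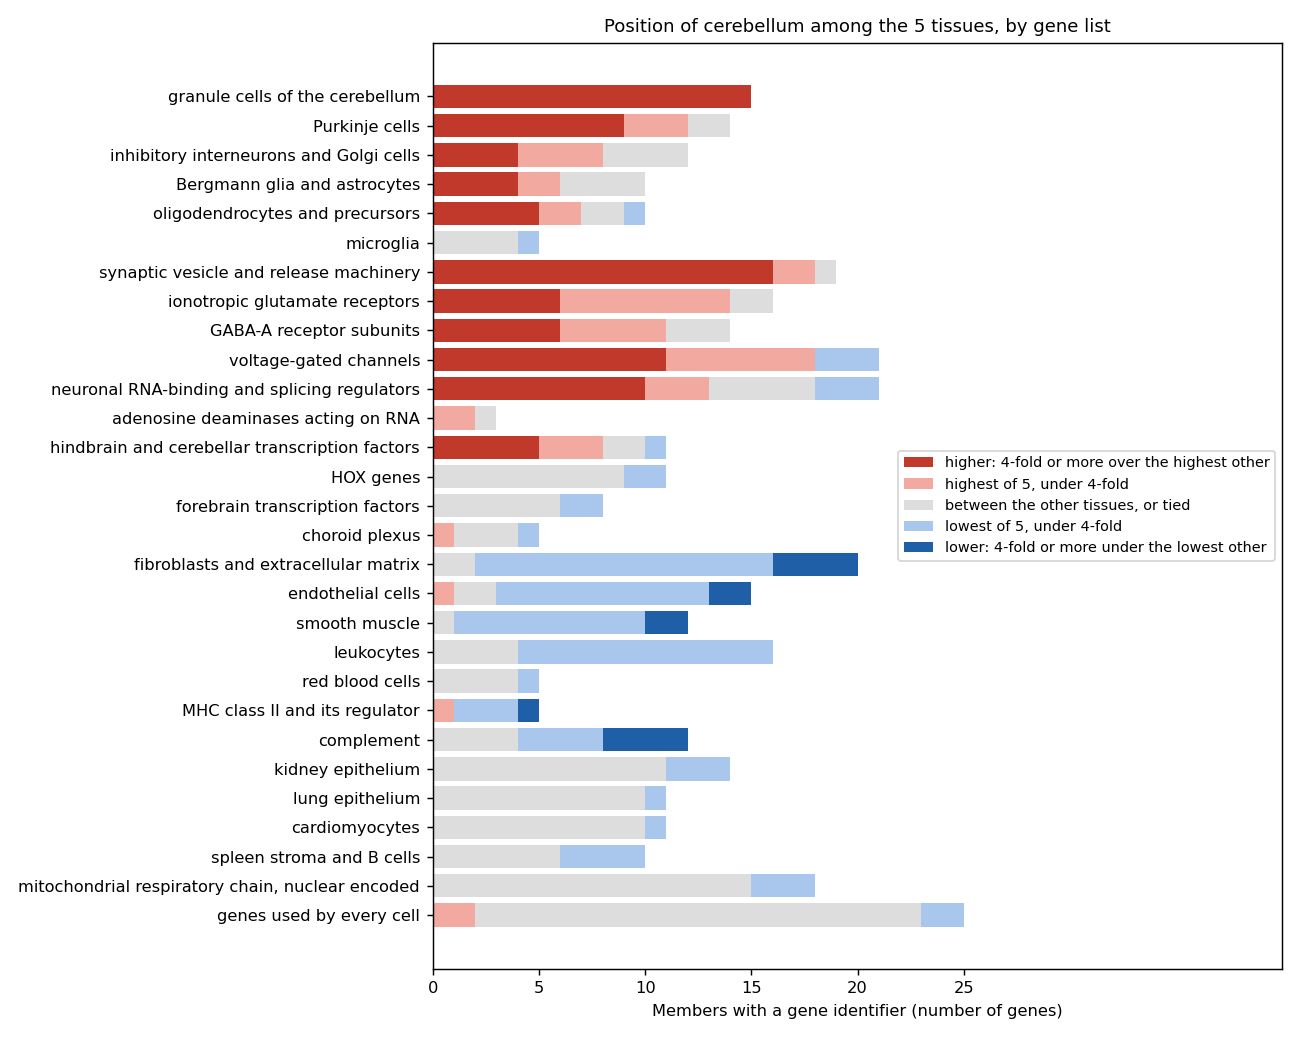
Number of measured members of each gene list by the place of cerebellum among the 5 tissues, from higher by the fold (dark red) over highest, intermediate or tied and lowest to lower by the fold (dark blue). All 15 granule cell genes and 16 of 19 synaptic vesicle genes are dark red, while 18 of 20 fibroblast and matrix genes are in the blue classes.

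The machinery of synapses accounted for many of the strongest differences. Of 19 measured genes of synaptic vesicles and release, 16 were higher. Besides SNAP25 and SYT1 they included SYP, the vesicle membrane protein synaptophysin, at 141 RPKM against 1.29 in spleen. The 3 members not called were NSF, the ATPase that takes the fusion complex apart in all cells, at 49.8 RPKM against 12.7 in spleen, RAB3A at 5.12 RPKM against 11.9 in lung, and UNC13A, which was low at 1.94 RPKM but under 0.04 RPKM elsewhere.

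Ionotropic glutamate receptor genes differed widely among themselves within cerebellum. Of 16 measured, 6 were higher and 14 had their highest level in cerebellum. GRIN1, the obligatory NMDA receptor subunit, led at 50.1 RPKM, and its partner of mature granule cells, GRIN2C, was at 26.0 RPKM, whereas GRIN2A was at 2.20, GRIN2D at 0.714 and GRIN2B at 0.0976 RPKM. Among AMPA receptor genes GRIA4 was at 28.6 RPKM, GRIA2 at 16.95, GRIA1 at 15.8 and GRIA3 at 2.44. Each of these is the level of 1 transcript, and GRIA2 has 4. With RPKM summed over transcripts, the log2 ratio of GRIA2 to the highest other tissue was 5.45 in place of 4.09. The order of these genes can therefore depend on the transcript chosen. The kainate receptor genes ran from 0.314 RPKM for GRIK3 to 8.02 for GRIK5, and none reached the fold.

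Of 14 measured GABA-A receptor subunit genes, 6 were higher. GABRD at 87.0 RPKM and GABRA6 at 47.3 RPKM, the subunits known to pair in granule cells, were the highest, and GABRB1 at 16.2 and GABRB2 at 7.50 RPKM were among the others. GABRE, at 2.17 RPKM in cerebellum and 17.7 in kidney, and GABRP, at 0 reads in cerebellum and 0.738 RPKM in kidney, went against the list.

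Of 21 voltage-gated channel genes, 11 were higher. Among them, SCN2A, a sodium channel of axons, at 45.4 RPKM, CACNG2 (stargazin, which brings AMPA receptors to the surface) at 36.0 and CACNA1A, the P/Q-type calcium channel of Purkinje cells and nerve terminals, at 33.4 were each under 0.2 RPKM in the other tissues. Cerebellum was the lowest of 5 for 3 members, among them KCNQ1 at 0.305 RPKM in cerebellum and 16.3 in kidney, and CACNA1C at 0.0982 in cerebellum and 2.40 in heart.

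RNA-binding and splicing regulators differed between members of the same families. Of 21 measured, 10 were higher, namely RBFOX3, NOVA1 at 57.7 RPKM against 5.16 in lung, RBFOX1 at 47.0 against 8.40 in heart, CELF3 at 33.5, CELF4 at 32.8, CELF5, ELAVL2 at 3.38, ELAVL3 at 31.9, ELAVL4 at 30.9 and SRRM4, which drives neuronal microexons, at 11.2 RPKM. PTBP1, the splicing repressor that neurons shut off, was at 12.6 RPKM in cerebellum and 8.94 in heart but 43.1 to 62.8 in kidney, lung and spleen. Its neuronal relative PTBP2 was highest in cerebellum at 7.52 RPKM, within 2-fold of lung at 4.56. The epithelial regulators ESRP1 and ESRP2 had 0 reads in cerebellum and in heart.

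Among transcription factors, ZIC genes and PAX6 were high in cerebellum, and the measured forebrain and HOX genes were at or near 0 there. Of 11 hindbrain and cerebellar factors, 5 were higher, ZIC1, ZIC2, ZIC4 at 71.6 RPKM, PAX6 and ZIC5 at 6.95. Among the others, MEIS1 was at 14.9 RPKM in cerebellum and 14.1 in lung, MEIS2 was lowest in cerebellum at 3.27 RPKM, and 3 of the 11 were under 1 RPKM in cerebellum. ZIC1 and ZIC4 are neighbours on chromosome 2, and ZIC2 and ZIC5 are neighbours on chromosome 17. All 11 measured HOX genes were under 0.1 RPKM in cerebellum and 8 had 0 reads, whereas kidney held HOXD8 at 30.6 and HOXC10 at 24.4 RPKM. Heart was low as well, with 8 of the 11 HOX genes at 0 reads and a sum of 0.519 RPKM. All 8 forebrain factors were under 0.2 RPKM in cerebellum, among them TBR1 at 0.0473 and NEUROD6 at 0.0682, and their sum was 0.275 RPKM there, 0.334 in kidney and 36.1 in lung. Only 3 of the 8 reached 1 RPKM in any tissue, and TBR1 was also on the list of hindbrain and cerebellar factors. Of 5 choroid plexus genes, FOLR1, KL, PRLR and CLIC6 were under 0.2 RPKM in cerebellum and SLC4A5 was at 2.94 RPKM.

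None of the 3 measured genes of the family named adenosine deaminases acting on RNA passed the fold. ADAR stood at 16.9 RPKM in cerebellum, above heart at 5.69 and under kidney at 19.8, lung at 31.8 and spleen at 43.9. ADARB1 was highest in cerebellum at 21.4 RPKM, but lung at 13.2 was near it and kidney, heart and spleen were at 1.71, 0.608 and 2.66. ADARB2, which is known from brain, was at 0.748 RPKM in cerebellum and 0.0689 or less elsewhere. At so low a level the rule cannot call a gene higher. Of 23 genes that host coding editing sites verified by the study, 5 were higher in cerebellum, against 2.38% of all genes and 4.35% of those at 1 RPKM or more in a tissue: GRM4 at 69.1 RPKM, NOVA1, GRIA2, UNC80 at 8.89 and KCNA1 at 6.05. The study found these sites by RNA-Seq of tissues that included cerebellum and prefrontal cortex, and it required reads of the edited form. The list thus depends on expression in those tissues, and the shares over all genes are not a like background for it. NOVA1 was represented by a 546-bp transcript at chr7:89353518-89479960, which does not span its edited position.

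Some genes were shared by cerebellum and 1 peripheral tissue. A gene was counted as shared where cerebellum was 4-fold or more over the next tissue and within 4-fold of its partner, on the (RPKM + 1) scale. There were 91 such genes with lung (0.318%), 90 with kidney (0.314%), 70 with spleen (0.244%) and 46 with heart (0.161%). With lung the leading gene by its fold over the next tissue was AQP4. With kidney it was PHYHIPL at 60.8 RPKM in cerebellum and 23.9 in kidney, followed by LHX1. With heart it was EEF1A2, the elongation factor of neurons and muscle, at 127 RPKM in cerebellum, 93.4 in heart, 0 in kidney, 0.0934 in lung and 0.681 in spleen. With spleen it was CNTFR, the receptor of ciliary neurotrophic factor, at 29.7 and 16.9 RPKM. These genes were chosen after their values were seen.

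The 106 lower genes formed a smaller and different group. Their median cerebellum level was 1.41 RPKM, and 62 of the 106 still reached 1 RPKM there. The lowest ratio was that of CLIC5 (ENSMMUG00000003511, chr4:45779107-45890732), a chloride channel family protein tied to the actin cortex, with 38 reads or 0.196 RPKM in cerebellum (interval 0.142 to 0.268) and 22.8, 103, 76.8 and 24.3 RPKM in kidney, lung, heart and spleen. The complement component C7 (chr6:40754916-40838856) was at 1.23 RPKM in cerebellum and 63.4, 111, 27.1 and 235 RPKM in the other tissues in that order. For both genes the lowest peripheral tissue was more than 20 RPKM above cerebellum.

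Insulin-like growth factor binding proteins came next among secreted factors. IGFBP3 was at 0.867 RPKM in cerebellum and 54.1, 27.2, 21.1 and 176 RPKM in kidney, lung, heart and spleen, and IGFBP4 at 3.34 RPKM and 311, 102, 45.8 and 164. Proteins that join the membrane to actin or matrix were also low in cerebellum: TNS1 (tensin) at 2.47 RPKM against at least 38.3, ANXA2 (annexin A2) at 2.83 against at least 40.4, and EZR (ezrin) at 0.805 against at least 17.1. LBH, a transcription cofactor, was at 1.15 against at least 21.7. A4GALT, a glycosyltransferase of globosides, was at 0.9498 against at least 22.4, but with RPKM summed over its transcripts the log2 ratio to the lowest other tissue was -1.65 in place of -3.59, short of the fold. The row that carries the symbol mml-mir-675 is a 1073-bp transcript at chr14:1908081-1909153 in a poly(A)-positive library and does not measure the mature miRNA; it was at 0.423 RPKM in cerebellum and 18.7 RPKM or more elsewhere. At the edge of the rule, S100A6 with a ratio of 0.249 was inside and DYSF with 0.252 outside.

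Marker lists of connective tissue and vessels lay at the bottom in cerebellum. Cerebellum was the lowest of 5 for 11.9% of all genes and for 20.2% of those at 1 RPKM or more in any tissue. It was the lowest for 18 of 20 fibroblast and matrix genes, and 4 of them passed the fold: COL6A2 at 2.10 RPKM, FBLN5 at 1.17, COL1A1 at 0.571 and the laminin chain LAMB1 at 0.222, all against 4.92 RPKM or more elsewhere. DCN (decorin), the most abundant of the list, was at 7.19 RPKM in cerebellum and 20.5 to 275 RPKM elsewhere. For 11 of 12 smooth muscle genes cerebellum was again the lowest, with ACTA2, smooth muscle actin, at 4.13 RPKM against at least 25.4 and TAGLN at 12.99 against at least 58.9.

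Endothelial genes showed a split within the list. Cerebellum was the lowest for 12 of 15, and ENG (endoglin) at 7.35 RPKM and PECAM1 at 1.92 RPKM passed the fold, with lung the highest at 211 and 161 RPKM. The exceptions included SLC2A1 and MFSD2A, which are known for the blood-brain barrier. Other barrier genes of the list, CLDN5 and ABCB1, are not reported here. SLC2A1, the glucose transporter of brain capillaries, was highest in cerebellum at 28.4 RPKM against 6.94 in kidney, and MFSD2A, a lipid transporter of the barrier, was at 4.48 RPKM in cerebellum, 39.6 in lung and at most 0.326 in the other 3.

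For most listed genes of the immune system cerebellum was the lowest of the 5 tissues. The fold was passed by 0 of 16 leukocyte genes, 1 of 5 genes of MHC class II and its regulator and 4 of 12 complement genes, against 0.370% of all genes and 0.676% of those at 1 RPKM or more. Cerebellum was the lowest for 12 of the 16 leukocyte genes, with PTPRC (CD45) at 0.185 RPKM, but heart at 0.649 and kidney at 1.73 were low as well. CD74, the invariant chain of MHC class II, was lower in cerebellum at 15.1 RPKM, against 1857 in spleen, 571 in lung, 145 in heart and 99.3 in kidney. Cerebellum was the lowest for 4 of the 5 genes of that list and the highest for RFXAP, a regulator of MHC class II genes, at 3.76 RPKM against 2.53 in spleen. The 4 lower complement genes were C7, SERPING1 (the C1 inhibitor) at 4.37 RPKM against at least 27.6, C1S at 0.963 against at least 11.4, and C1R at 0.659 against at least 6.56. C1S and C1R are the enzymes of the first complement complex and are neighbours on chromosome 11.

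Genes used by every cell ranged less between the tissues than those of the respiratory chain. The 25 genes used by every cell summed to 2801 RPKM in cerebellum and 2273 to 3578 RPKM elsewhere, and the 18 nuclear genes of the respiratory chain to 308 RPKM in cerebellum and 190 to 915 RPKM elsewhere. None of either list passed the fold in either direction, but at shares of 2.38% and 0.370% over all genes, lists of this size would hold few calls or none. GAPDH was at 773 RPKM in cerebellum and 266 to 706 elsewhere, and RAB7A at 77.0 and 44.8 to 94.5. The respiratory chain genes had a median log2 ratio of -1.40 to the highest other tissue, against -0.98 over all genes at 1 RPKM or more, with heart the highest for CYC1 at 266 RPKM and cerebellum at 88.6. ACTB and PPIA were under 7 RPKM in all 5 tissues and HBA1 was listed at 0 in all 5; these genes have near-identical copies, and their values are uncertain. Of 5 red blood cell genes the cerebellum sum was 0.0250 RPKM.

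Most listed epithelial and muscle genes of the other organs were under 1 RPKM in cerebellum. The number at 1 RPKM or more there was 2 of 14 for kidney epithelium, 2 of 11 for lung epithelium, 4 of 11 for cardiomyocytes and 0 of 10 for spleen. The highest were CALB1, the lipid transporter ABCA3 of the lung list at 12.8 RPKM and RYR2, the calcium release channel of heart muscle, at 9.87 RPKM. UMOD at 1086 RPKM in kidney, SFTPC at 4095 and SFTPB at 2805 RPKM in lung, and MYL2 at 8406 RPKM in heart each had at most 2.08 RPKM in cerebellum. Over genes at 50 RPKM or more in their own organ, the median level in cerebellum was 0.00655% of kidney for 10 kidney genes, 0.00325% of lung for 8 lung genes, 0.0347% of heart for 9 cardiomyocyte genes and 0.00869% of spleen for 6 spleen genes. The exceptions were CALB1 in kidney at 22.2% and CD22 in spleen at 1.14%.

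Higher genes seldom lacked reads in heart. The rule caps their level in every other tissue, so the shares given here are a description of chosen genes. Over the 154 higher genes at 50 RPKM or more in cerebellum, the median level was 0.916% of the cerebellum level in heart, the lowest of the 4 tissues, 1.06% in spleen, 1.19% in kidney and 1.86% in lung. The heart quartiles were 0.390% and 3.95%, and 78 of the 154 were at 0.1% to 1% in heart, against 39 in kidney, 45 in lung and 44 in spleen. None of the 154 had 0 reads in heart, against 4 in lung, 12 in spleen and 17 in kidney. Of the 15 granule cell genes, 15 had 3 reads or more in heart, with a median of 0.331% of the cerebellum level, against 5 in kidney, 9 in lung and 9 in spleen. The cardiomyocyte genes MYL2 and MYL7 were at 2.08 and 1.52 RPKM in cerebellum, 0.0279 and 1.81 in lung, 0 and 0.0713 in kidney and 0.227 and 0 in spleen. The 11 cardiomyocyte genes summed to 16.1 RPKM in cerebellum, most of it from RYR2 alone, at the level given above. This sum was less than the 25.3 in lung and more than the 12.7 in kidney and 1.74 in spleen. The source of these reads was not tested.

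**Figure D4:**
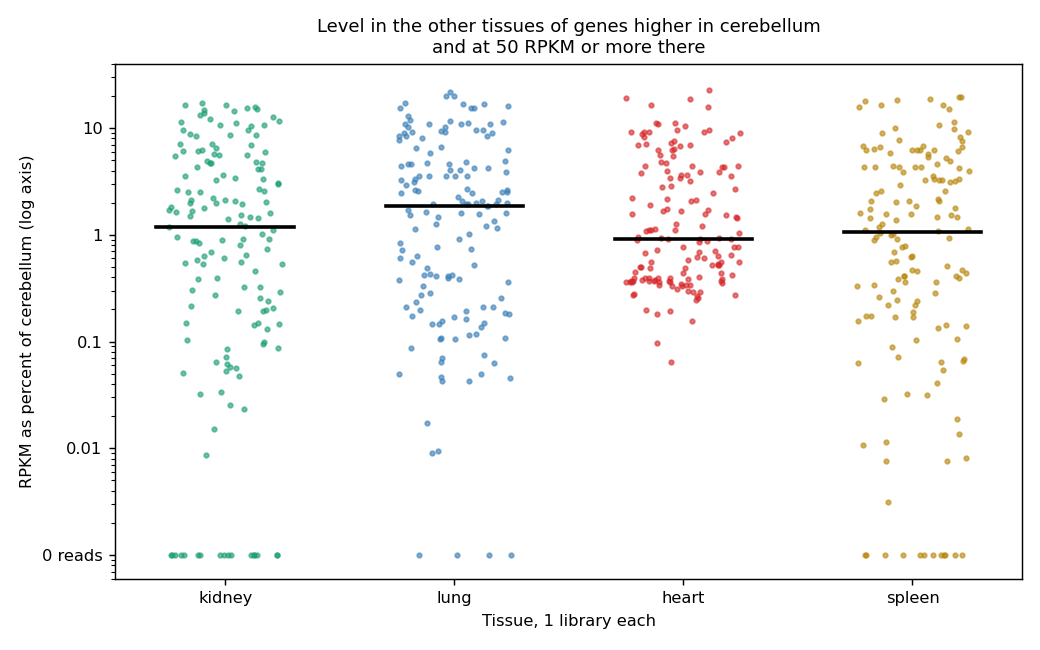
Level in kidney, lung, heart and spleen as a percent of the cerebellum level (log axis, genes with 0 reads drawn on the lowest line) for the 154 higher genes at 50 RPKM or more in cerebellum; points are genes and black bars are medians. Heart has the lowest median, 0.916%, yet no gene at 0 reads, and 78 of its points lie between 0.1% and 1%, whereas kidney has 17 genes at 0 reads, spleen 12 and lung 4.

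Higher genes had a longer total exon length per transcript than the rest and a larger share of very long genes. Their median exon length was 2485 bp, against 1110 bp for all genes and 2003.5 bp for genes at 1 RPKM or more in a tissue. Their median genomic span was 18164 bp, far above the 5607 bp of all genes but near the 17708 bp of genes at 1 RPKM or more. The tail differed more than the middle: 21.1% of higher genes spanned 100 kb or more, against 11.2% of genes at 1 RPKM or more and 11.3% of lower genes. In the class of 300 kb or more, 53 of 399 genes were higher (13.3%), and in the class of 1 to under 10 kb 229 of 6719 (3.41%). By exon length the share grew from 0.0510% under 200 bp to 9.20% at 8000 bp or more, but only 212 of 5877 genes under 200 bp reached 1 RPKM in a tissue. Among genes at 1 RPKM or more it grew from 1.42% to 9.87%. These are descriptions over genes, and a longer transcript collects more reads at the same RPKM.

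By chromosome the shares lay on both sides of the 2.38% of all genes. The share of higher genes ran from 1.38% on chromosome 9 (16 of 1158) to 3.41% on chromosome 10 (46 of 1349), and it was 1.99% on the X chromosome (27 of 1354). Among genes at 1 RPKM or more, the range was 2.58% on chromosome 9 to 5.89% on chromosome 10 and 4.78% on X. The 38 mitochondrial rows had 0 reads in all 5 tissues and give no measurement.

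**Figure D5:**
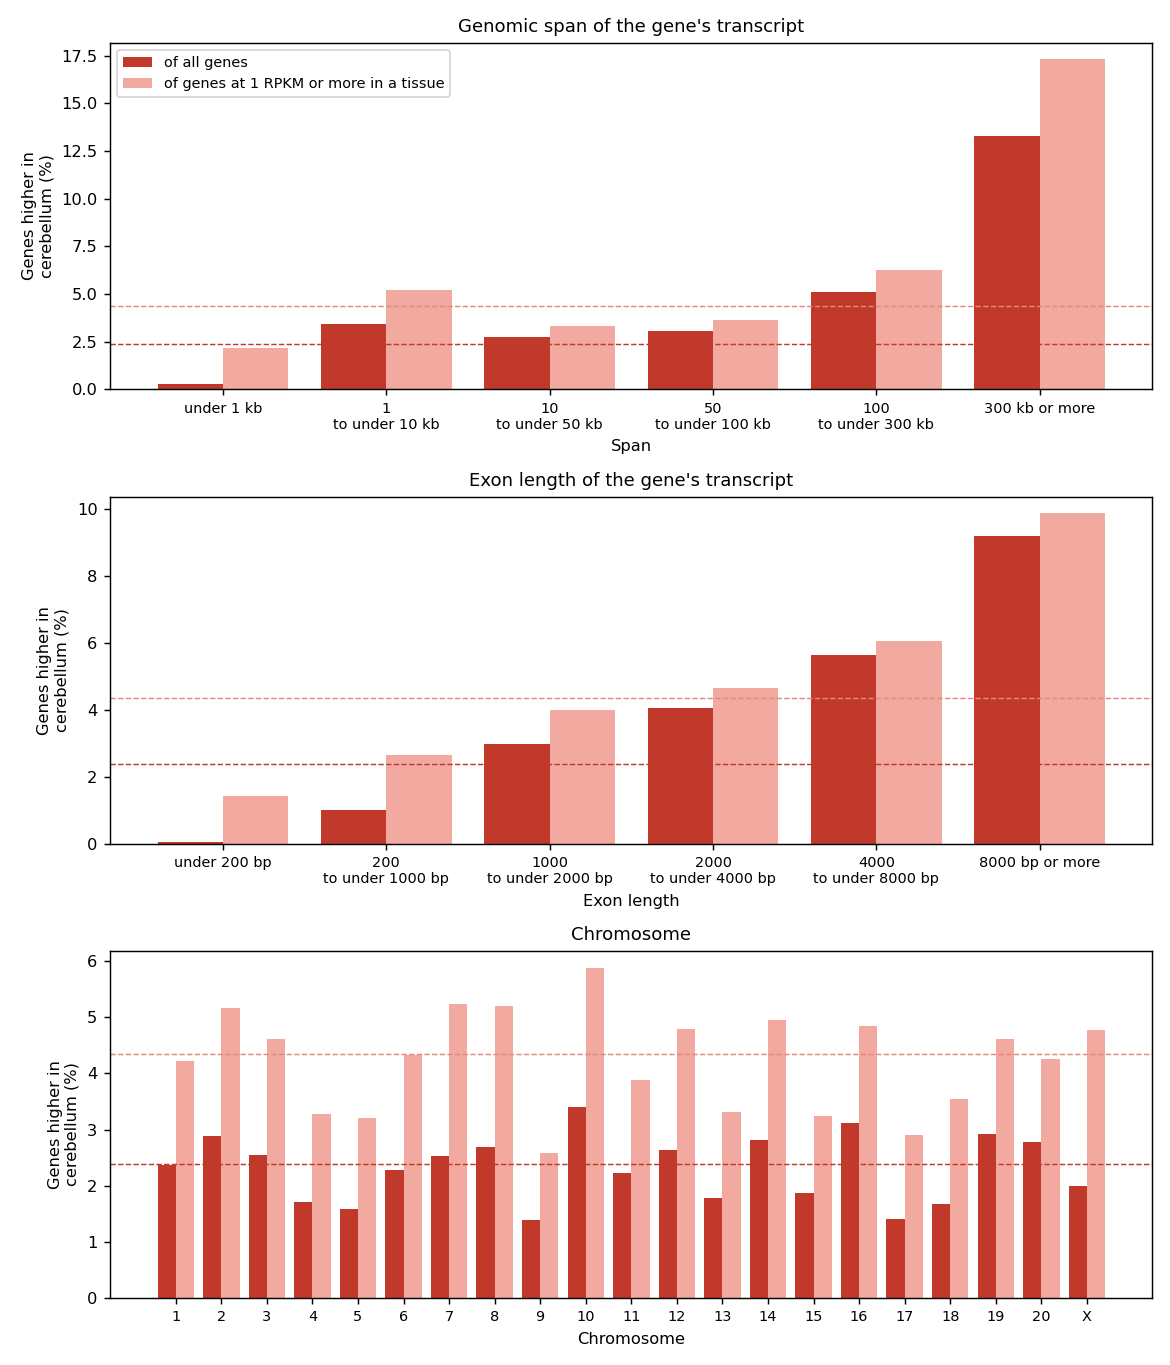
Percent of genes higher in cerebellum by genomic span (top), exon length (middle) and chromosome (bottom), of all genes (dark bars) and of genes at 1 RPKM or more in any tissue (light bars). Dashed lines mark the shares over all chromosomes and lengths, 2.38% and 4.35%; the class of 300 kb or more stands at 13.3% and 17.3%.

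Neighbouring higher genes occurred in 61 runs of 124 genes, none longer than 3 genes, and in 43 of the runs the spans did not overlap. Besides the ZIC pairs, such runs included NEFM and NEFL on chromosome 8, which encode 2 neurofilament chains, and GABBR1 with the myelin gene MOG on chromosome 4. The lower genes had 4 runs of 2 genes. Overlapping models can carry the same reads: the span of 160 of 682 higher genes (23.5%) overlapped that of another gene, against 24.6% of all genes, and whether the counting used the strand is not given in the sources used here.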

How the data were processed

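Poly(A)-positive, strand-specific RNA was sequenced from 5 tissues of rhesus macaque, 1 library each. The authors deposited, per transcript, a read count with no normalization and the RPKM, which equals the count scaled to exon length and properly mapped reads in 51763 of 51763 rows. The submitters' processing notes name TopHat 1.2.0, the study's methods name the rheMac2 build, and the counting tool is not given in the sources used here. The deposited RPKM were used unscaled. Files were joined by transcript identifier with 1-based starts, and exon lengths of 7 transcripts differed between files. Genes are the 28633 Ensembl identifiers; 8057 transcripts without one were kept apart. Symbols came from a later annotation (15556 identifiers matched) and, for 18 of 18 host genes of editing sites that have one, were the symbol given at that position.

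The pseudocount was 1 RPKM, the fold 4, the floor 3 reads. Genes named are the 20 of highest and 10 of lowest ratio with a symbol, members of 29 lists (355 of 485 symbols measured), the ADAR genes and called host genes of editing sites; others are named as such, and some genes are not reported here. The comparison, the genes described and the lists were chosen with earlier results of these data known. No test between tissues was made, with 1 library per tissue. Python 3.11.15, numpy 2.4.6, pandas 2.3.3 and scipy 1.17.1 were used. The code for the calls was run on simulated reads. In these each gene had a mean level shared by all tissues, apart from genes shifted in cerebellum. Such a run checks the code and not the calls in these libraries.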

Additional observations from a re-analysis of the deposited data

Results flagged for a closer look

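The 8057 transcripts without a gene identifier, which enter no count above, also held a cerebellar signal. Of these, 116 (1.44%) passed the same rule and were higher in cerebellum, with a median cerebellum level of 7.89 RPKM and a highest level of 1012 RPKM, and 10 were lower. They carry no symbol, and some may repeat reads of genes that have one, which was not tested.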

How the results depend on the processing

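Each tissue had 1 library, so all values describe these libraries, and depth limits levels under 3 reads. The 682 higher genes became 1109 with a pseudocount of 0.1 RPKM, 1327 at a fold of 2 and 378 at a fold of 8. The 106 lower genes became 399 with a pseudocount of 0.1 RPKM, 509 at a fold of 2, 23 at a fold of 8, 175 without kidney and 333 without heart. Higher genes made up 86.5% of both directions together as reported, 73.5% with a pseudocount of 0.1 RPKM, 72.3% at a fold of 2 and 68.7% without heart. Under the other alternatives the counts stayed within 1.5 times, at 664 to 798 higher and 100 to 151 lower genes. Upper-quartile scaling raised heart by 0.81 and lowered spleen by 0.42 on the log2 scale, and left 655 of the 682 and 95 of the 106 genes called; median-ratio scaling raised heart by 1.06 and left 654 and 90. Under either scaling the granule cell list kept 15 of 15 higher, the Purkinje list had 8 in place of 9, the Bergmann glia and astrocyte list 3 in place of 4, and the fibroblast list 3 lower in place of 4. The median span of the higher genes was 14131 bp with a pseudocount of 0.1 RPKM. Their median exon length was 2184 bp with that pseudocount and 2867 bp with the longest transcript of each gene. Of 38 named genes, none changed direction under upper-quartile scaling or with RPKM summed over transcripts, but with summed RPKM the log2 ratios of DDX39B (1.995) and A4GALT (-1.65) no longer passed the fold. The log2 ratio moved beyond the range of counting error for 29 of the 38 under upper-quartile scaling and for 16 with summed RPKM. Under upper-quartile scaling that of SNAP25 fell from 7.78 to 7.16, and ZIC1 at 7.17 then stood above SNAP25. No paired analysis was possible because each tissue had 1 library.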
